A study of Mus musculus with 36 samples.

Results

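The genes of the mouse major histocompatibility complex (MHC), named H2- in the mouse, were followed in liver RNA together with the genes that supply, load or switch on MHC molecules. The members are all 33 gene names of the deposited table that start with H2-, plus B2m, Tap1, Tap2, Tapbp, Psmb8, Psmb9, Cd74, Ciita and Nlrc5, which makes 42 of 18591 genes. The rule uses gene names alone. RNA was sequenced from livers of C57BL/6 mice in 4 groups of 3 libraries, all on doxycycline at 50 mg/L in the drinking water. Decitabine Tet1 KO YAP Tg mice (Tet1 -/- YAP Tg genotype) also received decitabine, a cytidine analogue that inhibits DNA methylation, as daily intraperitoneal injections of 0.5 mg/kg for 10 days, in mice 1 month old. Values "with decitabine" below are of this group, set against the next. Tet1 KO YAP Tg mice had the same genotype and doxycycline alone. YAP Tg mice carried the YAP transgene with no Tet1 deletion named, and Control mice were wild type. YAP is a transcriptional co-activator restrained by the Hippo pathway, and TET1 oxidises 5-methylcytosine in DNA. The promoter and cell type that drive the transgene, which mice on doxycycline alone were given it at 1 month and which through a nursing mother, the duration of doxycycline and the deleted part of Tet1 are not given in the sources used here. All 4 comparisons concern transgenic or wild-type livers with no group that lacks Tet1 alone and no Control group on decitabine.

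MHC class I molecules present peptides made in the cytosol and consist of a heavy chain, the light chain beta-2 microglobulin and the peptide. The proteasome cuts the peptides, the TAP transporter carries them into the endoplasmic reticulum and tapasin helps to load them. Nearly all nucleated cells carry the classical heavy chains, while the Q, T and M regions encode nonclassical heavy chains, among them H2-Q10, a secreted molecule made by the liver. MHC class II molecules present peptides from endosomes and are made mainly by dendritic cells, B cells and activated macrophages. The invariant chain Cd74 blocks their groove until H2-DM exchanges its remnant for a peptide, and H2-O restrains H2-DM. Ciita is the master co-activator of class II genes and Nlrc5 its counterpart for class I genes.

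Levels below are normalised reads, which are reads scaled to a common library size by TMM. The libraries held 19082417 to 31723675 reads. A fold change is given as log2 with a pseudocount of 0.5 added to each value, with its standard error (SE), from limma fits across all genes, and a gene is called higher or lower at a Benjamini-Hochberg adjusted p below 0.05. Libraries of YAP Tg, of Tet1 KO YAP Tg, and Controls 1 and 3 were nearly alike, with a coefficient of variation beyond read sampling of 0.00887 to 0.0433, 0.0242 to 0.0316 and 0.0233. It was 0.128 and 0.136 between Control 2 and the other Controls and 0.181 to 0.299 among decitabine libraries. Whether the 3 libraries of a group stand for 3 mice is not stated in the labels, so p-values measure only the spread between these libraries, which may be technical. Each call was therefore also made with near-identical libraries added together, which leaves 7 libraries with Tet1 KO YAP Tg and YAP Tg at 1 library each, assumed to vary like the other groups. The hepatocyte marker sum, mostly albumin (Alb), was 104100 to 123800 with decitabine, 60350 to 62620 in Tet1 KO YAP Tg, 118400 to 120900 in YAP Tg and 117300 to 137200 in Control. The single markers followed the sum only in part. In YAP Tg 5 of 7 were lower and none higher than in Control. In Tet1 KO YAP Tg 5 were higher and 2 (Alb and Apoa1) lower than in YAP Tg. Set against Control, Tet1 KO YAP Tg had 5 lower and 1 (Cps1) higher, with a median log2 fold change of -0.633. With decitabine 4 were lower and 1 (Alb) higher. Cyp2e1, a cytochrome P450, averaged 97.4 with decitabine, 4662 in Tet1 KO YAP Tg, 83.3 in YAP Tg and 6892 in Control. Tet1 had 1.60 to 3.51 normalised reads with decitabine, 0.587 to 1.25 in Tet1 KO YAP Tg, 8.59 to 9.90 in YAP Tg and 0.356 to 0.935 in Control, so its reads do not separate the untreated libraries labelled Tet1 KO from Control. In bulk RNA, fewer cells of a type and less RNA per cell cannot be told apart.

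The stretches before the start sites of some members whose levels are described below are shown, with different elements marked in class I and class II promoters. RefSeq (GRCm38.p6) gives a promoter for 26 of the 42 members, with H2-Q1, H2-Ab1, Cd74, Ciita and Nlrc5 among the others. Motif letters were chosen with these sequences in view. In the class I stretches, capitals mark an NF-kappa B type element (GGGGA and TCCCC with 1 base of any kind between) and an interferon response element (GTTTC and TTC with 2 bases between, or GAA and GAAAC on the other strand), searched on both strands.
H2-K1: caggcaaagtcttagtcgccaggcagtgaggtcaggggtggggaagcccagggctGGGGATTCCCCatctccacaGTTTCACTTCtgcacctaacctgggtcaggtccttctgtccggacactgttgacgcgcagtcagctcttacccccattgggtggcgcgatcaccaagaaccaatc
H2-D1: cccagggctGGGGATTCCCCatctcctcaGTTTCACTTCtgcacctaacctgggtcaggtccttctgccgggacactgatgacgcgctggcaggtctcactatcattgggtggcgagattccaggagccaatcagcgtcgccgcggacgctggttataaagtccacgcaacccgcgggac
H2-Q10: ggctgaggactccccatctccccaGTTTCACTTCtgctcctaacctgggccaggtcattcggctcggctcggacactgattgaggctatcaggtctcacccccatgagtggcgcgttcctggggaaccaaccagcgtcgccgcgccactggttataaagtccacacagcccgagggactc
These are the 180 bases before the start site of H2-K1 (chr17:34000334-34000513, minus strand), H2-D1 (chr17:35262914-35263093, plus strand) and H2-Q10 (chr17:35469909-35470088, plus strand). H2-K1 and H2-D1 share GGGGATTCCCC. The best ungapped match in H2-Q10 is GAGGACTCCCC, which differs from it by G2A and T6C, counted from 1 at the 5′ end of the element. The first motif occurs in 0.0487% of all 32851 promoters of the same length and in 3 members (H2-K1, H2-D1 and H2-Q6), and the second in 1.73% of promoters and in 8 members (H2-K1, H2-D1, H2-Q4, H2-Q6, H2-Q7, H2-Q10, H2-M2 and H2-M3).

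In the class II stretches, capitals mark a core of the X box (AG, AAC and ATG with 1 and then 2 bases of any kind between) and TGATTGG (an inverted CCAAT, the core of the Y box), both searched on both strands.
H2-Aa: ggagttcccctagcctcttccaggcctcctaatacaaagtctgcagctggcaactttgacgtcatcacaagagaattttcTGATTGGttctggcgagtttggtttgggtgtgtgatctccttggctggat
H2-Eb1: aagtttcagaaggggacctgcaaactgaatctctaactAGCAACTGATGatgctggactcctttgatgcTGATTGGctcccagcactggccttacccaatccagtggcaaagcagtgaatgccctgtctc
H2-DMb1: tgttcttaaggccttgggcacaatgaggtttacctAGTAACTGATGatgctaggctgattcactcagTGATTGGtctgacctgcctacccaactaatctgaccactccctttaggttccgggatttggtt
H2-Ob: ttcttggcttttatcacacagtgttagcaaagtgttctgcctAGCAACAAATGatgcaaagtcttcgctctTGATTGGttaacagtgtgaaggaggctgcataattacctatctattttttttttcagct
These are the 130 bases before the start site of H2-Aa (chr17:34287824-34287953, minus strand), H2-Eb1 (chr17:34305737-34305866, plus strand), H2-DMb1 (chr17:34153061-34153190, plus strand) and H2-Ob (chr17:34238775-34238904, plus strand). The start site used for H2-Aa lies 52 bases from its deposited gene start. The X box letters occur in 0.895% of all promoters and in 4 members (H2-Eb1, H2-Eb2, H2-DMb1 and H2-Ob). The H2-Aa stretch holds no match to these letters, which does not exclude a more diverged X box. The Y box letters occur in 7.82% of all promoters and in 16 members. Class I genes such as H2-K1 and H2-D1 are among them, and the letters are not marked in the class I stretches. GGAATG, the core of TEAD sites through which YAP acts on DNA, occurs in 14.7% of all promoters and in 1 member, H2-M2. A match is a description of these letters and shows no binding.

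The 42 names hold 3 classical class I genes, 9 Q, 5 T and 3 M genes, 2 class I pseudogenes, 6 genes of the class I light chain, peptide supply and loading, 4 class II chain genes, 6 class II helpers, 2 regulators and 2 neighbouring genes that present no antigen. Of these, 38 lie on chromosome 17 (mm10 positions throughout, as in the files). Overlapping annotations reduce the 42 names to 38 loci. H2-Q6 and H2-Q8 had identical reads in 12 of 12 libraries, as had H2-Q7 and H2-Q9. H2-T9 had 98.91 to 101.2% of the reads of H2-T22. H2-L lies within H2-D1 and had 54.86 to 69.41% of its reads, and C57BL/6 mice are known to lack a separate H2-L gene. Class I genes are close copies of each other and the handling of shared reads is not given, so the division of reads among them is uncertain. Of the 42, 38 passed the filter of at least 0.5 normalised reads in 3 libraries. The other 4 (H2-Oa, H2-Eb2, H2-M2 and H2-M5) stayed below 0.5 in every library, with H2-Oa reaching 0.462.

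**Figure D1:**
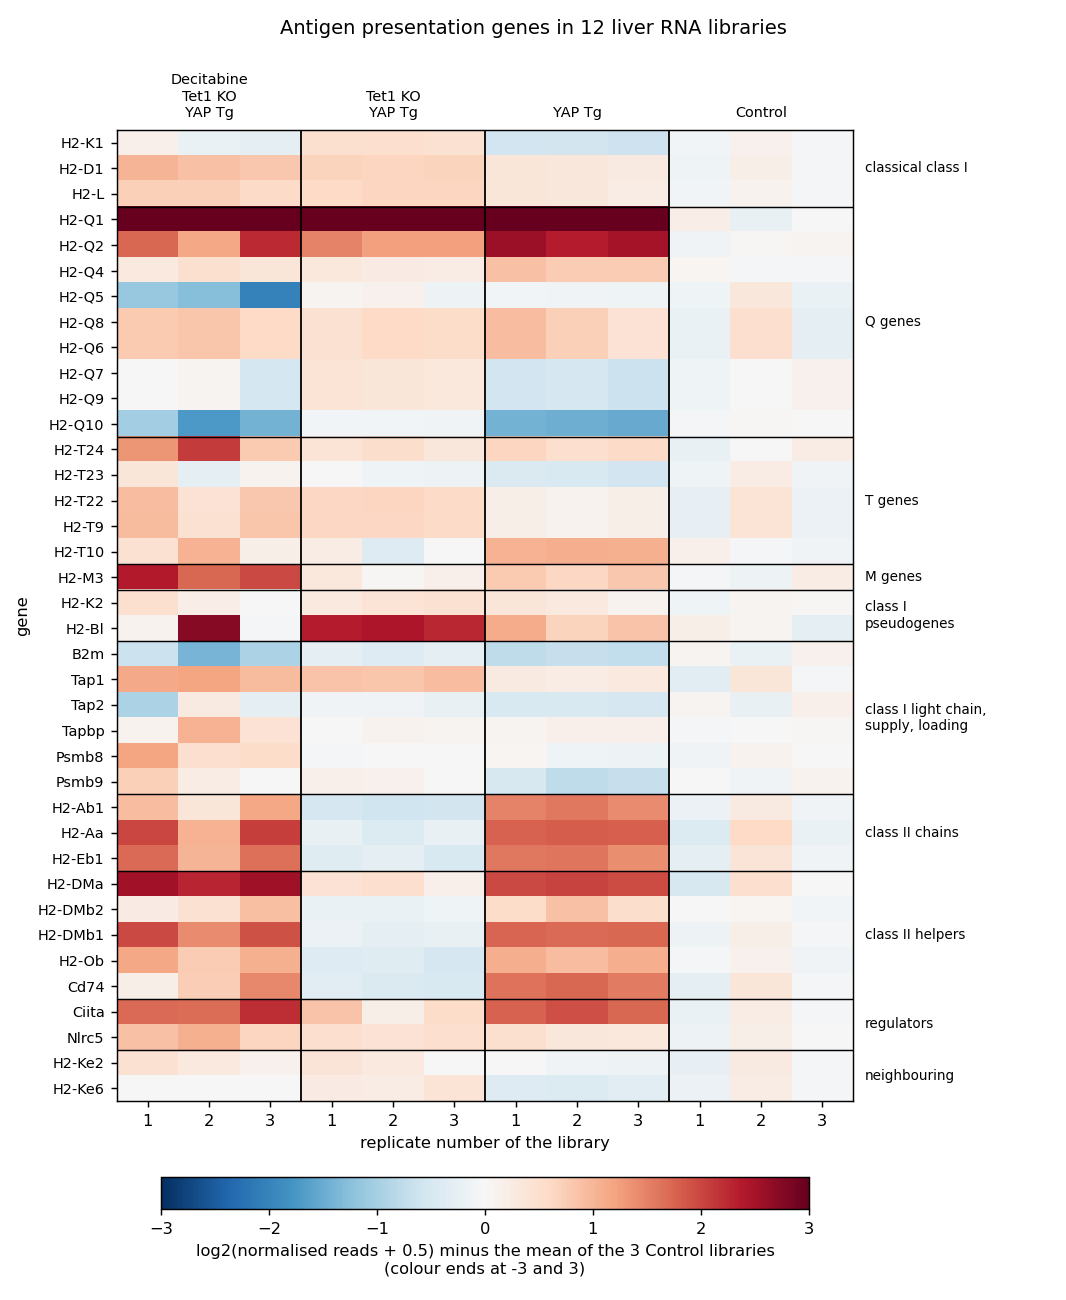
Levels of the 38 tested genes (rows, by role) in 12 libraries (columns, replicate number on the x axis). Colour gives log2(normalised reads + 0.5) minus the mean of the 3 Control libraries, ending at -3 and 3. H2-Q1 is past the end of the scale in the 9 libraries with the transgene, and class II chains and helpers are high with decitabine and in YAP Tg.

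YAP Tg livers had 22 of the 38 tested genes called higher and 9 lower than Control, where 36.1% of all genes were higher and 34.5% lower. Tet1 KO YAP Tg had 16 higher and 14 lower than YAP Tg, beside 33.4% and 34% of all genes. Against Control, Tet1 KO YAP Tg had 19 higher and 4 lower, beside 20.2% and 18.8%. With decitabine 17 were higher and 8 lower than in untreated Tet1 KO YAP Tg, beside 32.8% and 27.9%. In either direction the background was 70.5%, 67.4%, 39% and 60.7% in this order of comparisons. The median log2 fold change of the 38 was 0.35, 0.0883, 0.278 and 0.221, beside 0.00986, 0.00418, 0.0224 and 0.0693 over all genes. The split depended on the scaling. Without TMM, 28 members were higher and 3 lower in YAP Tg than in Control (59.9% and 17.3% of all genes), 8 higher and 16 lower in Tet1 KO YAP Tg than in YAP Tg (21.3% and 48.6%), 22 higher and 1 lower in Tet1 KO YAP Tg than in Control (37.5% and 9.29%) and 23 higher and 4 lower with decitabine (43.2% and 21%). With all libraries as TPM, 28 were higher and 3 lower with decitabine (50.7% and 16.3%). With near-identical libraries added together, 12, 6, 1 and 11 of the genes were still called with the same sign. These were H2-Q1 in all 4 comparisons; H2-DMa, H2-DMb1, H2-Ob, H2-Ab1 and H2-Eb1 in all but Tet1 KO YAP Tg against Control; Ciita, H2-Aa and H2-Q10 in the first and last; H2-Q2, H2-Q4 and Cd74 in the first; and H2-Q5 and H2-M3 in the last. These comparisons share libraries, Tet1 KO YAP Tg in the last 3 and YAP Tg or Control in the first 3, so their values stand side by side and are not independent. Every count of a smaller set or list below is to be read beside the shares of all genes given here, at the same scaling.

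The classical class I heavy chain genes went different ways. H2-K1 (chr17:33996012-34000333) had 810, 637 and 597 normalised reads with decitabine and 1018, 1025 and 995 in Tet1 KO YAP Tg. It had 491, 494 and 477 in YAP Tg and 682, 798 and 707 in Control. The libraries of these groups did not overlap except those with decitabine and of Control. H2-K1 was lower in YAP Tg than in Control (log2 -0.58, SE 0.0586, adjusted p = 2.82e-06), higher in Tet1 KO YAP Tg than in YAP Tg (1.05, SE 0.0586) and in Control (0.48), and lower with decitabine than without (-0.58, SE 0.115, adjusted p = 0.000717). Without TMM scaling its difference between YAP Tg and Control was -0.14 (adjusted p = 0.0945). With near-identical libraries added together that difference was -0.56, and each of the H2-K1 calls ended.

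H2-D1 (chr17:35263094-35267497) had 648, 593 and 565 with decitabine, 508, 503 and 511 in Tet1 KO YAP Tg, 413, 406 and 383 in YAP Tg and 293, 362 and 309 in Control. No 2 of these groups overlapped. It was higher in YAP Tg than in Control by 0.32 (SE 0.07, adjusted p = 0.00133), the opposite direction to H2-K1, and higher in Tet1 KO YAP Tg than in YAP Tg (0.34, but 0.083 and adjusted p = 0.383 without TMM scaling) and in Control (0.66). With decitabine the difference was 0.24 (adjusted p = 0.0438), and it was not called by edgeR (adjusted p = 0.133) or DESeq2 (0.136), nor without decitabine library 1 (0.0717) or without any 1 of the Tet1 KO YAP Tg libraries (0.0919 to 0.107). H2-L, which counts part of the H2-D1 locus, had 356, 355 and 320 with decitabine, 328, 336 and 341 in Tet1 KO YAP Tg, 280, 273 and 252 in YAP Tg and 203, 234 and 213 in Control, and its decitabine difference of 0.035 (adjusted p = 0.745) was called without TMM scaling (0.25, adjusted p = 0.0262) and with all libraries as TPM (0.41, adjusted p = 0.00109). The call of H2-L between Tet1 KO YAP Tg and YAP Tg ended without TMM scaling (0.066, adjusted p = 0.425). With near-identical libraries added together, the difference of H2-D1 between YAP Tg and Control was 0.33. In that fit each of the H2-D1 and H2-L calls ended. Per kilobase, the ratio of H2-D1 to H2-K1 was 0.759 to 0.898 with decitabine, 0.465 to 0.487 in Tet1 KO YAP Tg, 0.763 to 0.797 in YAP Tg and 0.407 to 0.430 in Control.

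Among the 9 Q genes, H2-Q1 had the largest fold change in each of the 4 comparisons. H2-Q1 (chr17:35320558-35325099), a nonclassical heavy chain gene, had 483, 403 and 283 normalised reads with decitabine, 123, 118 and 121 in Tet1 KO YAP Tg, 397, 410 and 418 in YAP Tg and 5.61, 4.05 and 4.81 in Control. The Control values rest on 268 reads over the 3 libraries. Every library with the transgene was above every Control library. The log2 fold change of H2-Q1 in YAP Tg over Control was 6.27 (SE 0.0876, adjusted p = 6.42e-14), a linear ratio of 84.7. It was lower in Tet1 KO YAP Tg than in YAP Tg (-1.75, SE 0.0876, adjusted p = 5.85e-09) and still 25.04 times the Control level (4.52, SE 0.0876, adjusted p = 2.58e-11). With decitabine it was higher than without (1.65, SE 0.161, adjusted p = 1.48e-06). With near-identical libraries added together H2-Q1 was called in the same direction in all 4 comparisons, and it was the single member called there for Tet1 KO YAP Tg against Control. In that fit Tet1 KO YAP Tg against YAP Tg sets 1 library against 1, so its p for H2-Q1 takes the spread from the other groups.

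H2-Q10 (chr17:35470089-35474563), the secreted class I gene of the liver, had 743, 457 and 572 with decitabine, 1425, 1431 and 1414 in Tet1 KO YAP Tg, 565, 550 and 535 in YAP Tg and 1463, 1570 and 1531 in Control. It was lower in YAP Tg than in Control (-1.47, SE 0.047, adjusted p = 9.47e-11) and higher in Tet1 KO YAP Tg than in YAP Tg (1.37, adjusted p = 2.15e-10). Tet1 KO YAP Tg libraries lay below the Controls by 0.095, which was not called (adjusted p = 0.131, 0.0381 by DESeq2). With decitabine it was lower than without (-1.30, SE 0.141, adjusted p = 4.14e-06). With near-identical libraries added together the second of these calls ended (adjusted p = 0.0735). A link between these levels and the promoter letters of H2-K1, H2-D1 and H2-Q10 shown above was not tested.

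**Figure D2:**
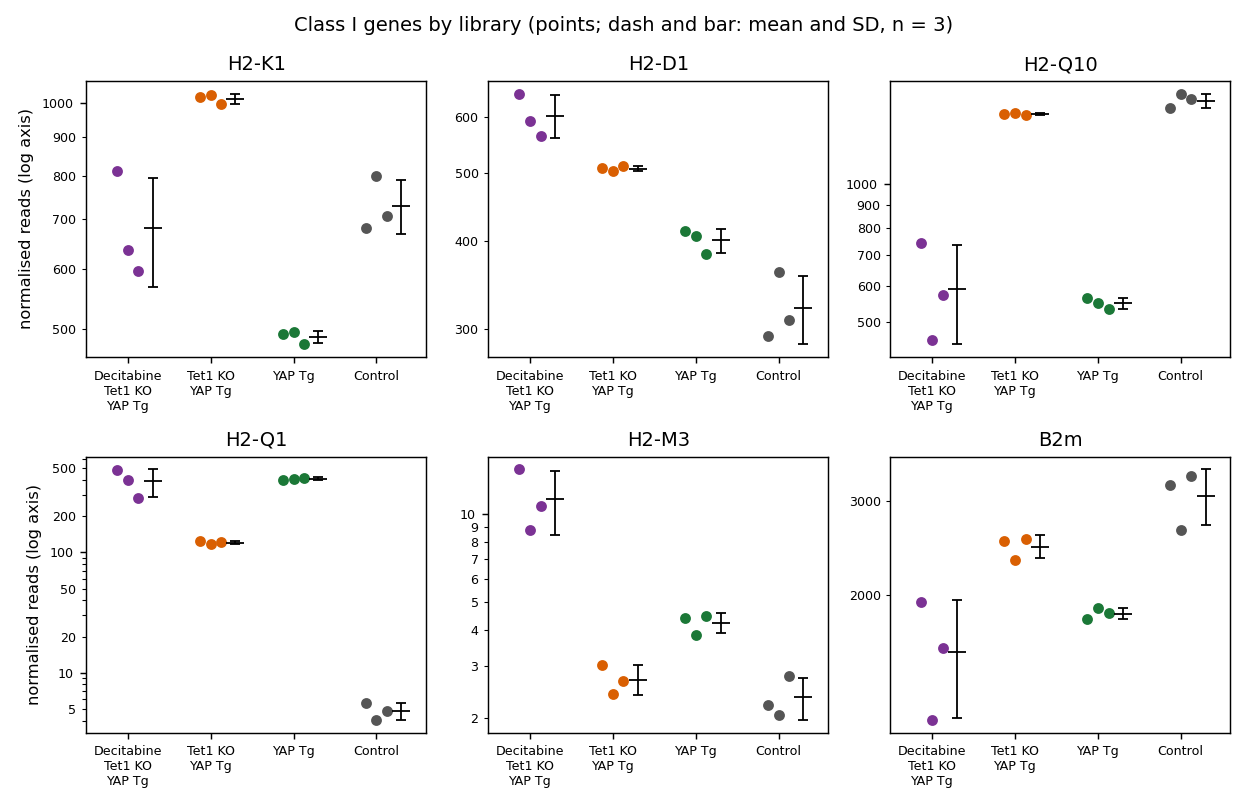
Normalised reads (log axis) of 5 class I heavy chain genes and B2m in each library (points), with the mean and SD of the 3 libraries of a group (dash and bar). H2-D1 steps down group by group, H2-K1 is lowest in YAP Tg, and H2-Q10 is low both with decitabine and in YAP Tg. H2-Q1 is near 5 in Control alone, and H2-M3 is highest with decitabine.

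The other Q genes were lower in level. H2-Q2 (chr17:35342333-35345722) had 2.52, 1.56 and 3.88 with decitabine, 2.10, 1.68 and 1.65 in Tet1 KO YAP Tg, 5.00, 4.23 and 4.74 in YAP Tg and 0.351, 0.445 and 0.475 in Control, the last from 24 reads. H2-Q2 was higher in YAP Tg than in Control (2.48, SE 0.134, adjusted p = 9.97e-09), lower in Tet1 KO YAP Tg than in YAP Tg (-1.16) and not called with decitabine (0.39, adjusted p = 0.149, 0.00703 without decitabine library 2). H2-Q5, a transcribed pseudogene in RefSeq, had 1.74, 1.51 and 0.702 with decitabine against 4.69, 4.86 and 3.89 in Tet1 KO YAP Tg, groups that did not overlap (-1.499, SE 0.218, adjusted p = 5.83e-05), and was called in none of the other comparisons. H2-Q4 averaged 41.6 ± 2.81 with decitabine, 38.4 ± 1.58 in Tet1 KO YAP Tg, 55.8 ± 2.54 in YAP Tg and 31.9 ± 1.33 in Control (SD, n = 3 each, here and below), and was called higher in YAP Tg than in Control (0.80). The shared reads of H2-Q7 and H2-Q9, genes of the Qa-2 antigen, averaged 31.3 ± 6.86 with decitabine, 43.8 ± 1.72 in Tet1 KO YAP Tg, 22.7 ± 1.08 in YAP Tg and 34.1 ± 2.98 in Control. They were called lower in YAP Tg than in Control (-0.57), a call that ended without TMM scaling (-0.14, adjusted p = 0.0961). The shared reads of H2-Q6 and H2-Q8 lay between 3.44 and 8.64 in all libraries. Both names were called higher than in Control in YAP Tg (0.69, adjusted p = 0.0067) and in Tet1 KO YAP Tg (0.53, adjusted p = 0.0454). The latter call ended by edgeR (0.0941) and DESeq2 (0.0742) and without any 1 of the Tet1 KO YAP Tg libraries (0.0832 to 0.118).

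Counted per kilobase over 15 class I heavy chain loci, the summed level was 1432 to 1859 with decitabine, 2109 to 2146 in Tet1 KO YAP Tg, 1241 to 1290 in YAP Tg and 1740 to 1962 in Control. H2-Q10 made up 21.6 to 27.1% of it with decitabine, 45.1 to 45.5% in Tet1 KO YAP Tg, 29.2 to 29.7% in YAP Tg and 54.3 to 57.2% in Control. H2-Q1 made up 9.77 to 13.8% with decitabine, 2.72 to 2.84% in Tet1 KO YAP Tg, 15.2 to 16.6% in YAP Tg and 0.102 to 0.159% in Control. The share of H2-K1 varied less, at 25.3 to 26.9%, 28.7 to 29.1%, 23.1 to 23.5% and 23.7 to 24.7% in the same order of groups. These shares use gene lengths recovered from the deposited TPM values and inherit the uncertainty of reads shared between copies.

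**Figure D3:**
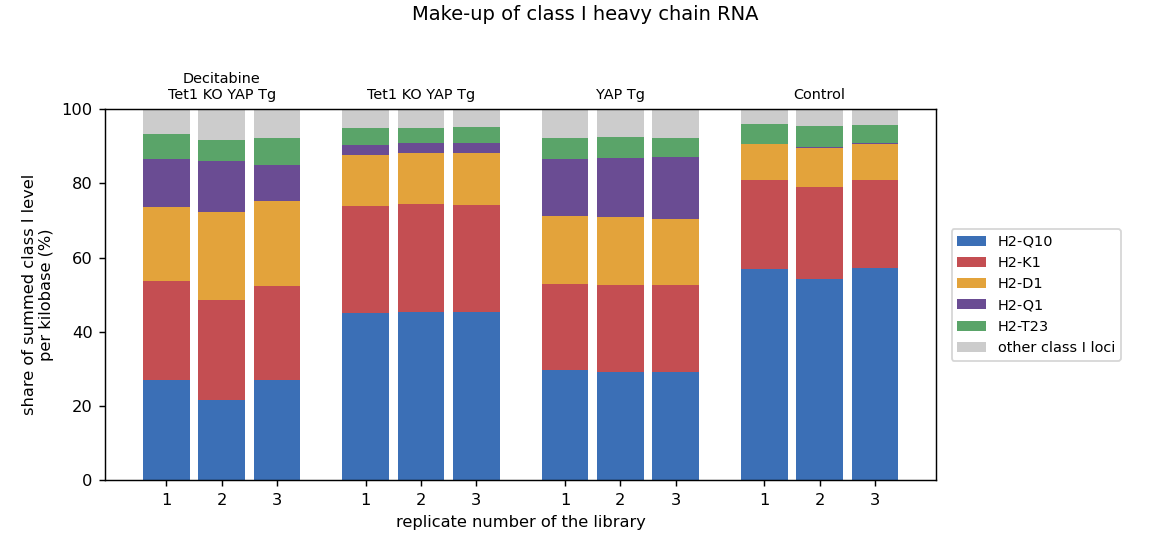
Share (%) of each class I heavy chain gene in the summed level per kilobase of 15 loci, per library. H2-Q10 is the largest share in Control at 54.3 to 57.2%, and H2-Q1 is visible with decitabine and in YAP Tg but near 0 in Control.

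Of 5 T genes, 2 were higher and 1 lower in YAP Tg than in Control, and with decitabine 2 were higher. H2-T23, which encodes Qa-1, a ligand of NK cell receptors, had 165, 105 and 139 with decitabine, 128, 118 and 115 in Tet1 KO YAP Tg, 94.5, 94.3 and 86.7 in YAP Tg and 118, 151 and 120 in Control. It was lower in YAP Tg than in Control (-0.49, adjusted p = 0.00034, and 0.676 without TMM scaling) and higher in Tet1 KO YAP Tg than in YAP Tg (0.39, but 0.13 and adjusted p = 0.25 without TMM scaling). With decitabine H2-T23 was not called (0.16, adjusted p = 0.375), but it was called without TMM (0.37, adjusted p = 0.0367), with all libraries as TPM (0.53, adjusted p = 0.00165) and without decitabine library 2 (0.33, adjusted p = 0.0244). H2-T22, a ligand of some gamma delta T cells, had 80.6, 57.5 and 75.2 with decitabine, 65.5, 66.2 and 63.6 in Tet1 KO YAP Tg, 48.1, 45.9 and 48.1 in YAP Tg and 35.9, 56.7 and 37.5 in Control. Control library 2 was apart from the other Controls, and without it the difference of 0.16 between YAP Tg and Control (adjusted p = 0.312) became 0.36 (adjusted p = 1.59e-06).

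H2-T24 had 24.3, 41.9 and 16.6 with decitabine, 12.6, 13.9 and 12.1 in Tet1 KO YAP Tg, 14.9, 13.5 and 14.3 in YAP Tg and 8.01, 9.47 and 10.98 in Control, and was called higher with decitabine (0.98, SE 0.243, adjusted p = 0.00378). H2-T10, a transcribed pseudogene in RefSeq, had 1.63, 2.70 and 1.24 with decitabine, 1.30, 0.681 and 1.07 in Tet1 KO YAP Tg, 2.66, 2.78 and 2.73 in YAP Tg and 1.23, 0.979 and 0.950 in Control. YAP Tg lay above both Tet1 KO YAP Tg (-1.11 for the deletion genotype against it) and Control (1.06). The call with decitabine (0.61, adjusted p = 0.0268) ended without decitabine library 2 (0.37, adjusted p = 0.113) or Tet1 KO YAP Tg library 2 (0.44, adjusted p = 0.123). H2-M3 (chr17:37270234-37274485), which presents N-formylated peptides such as bacteria and mitochondria make, had 14.2, 8.79 and 10.7 with decitabine, 3.04, 2.41 and 2.67 in Tet1 KO YAP Tg, 4.39, 3.85 and 4.48 in YAP Tg and 2.22, 2.05 and 2.79 in Control. Its decitabine libraries were above all others, higher than Tet1 KO YAP Tg by 1.85 (SE 0.174, adjusted p = 1.02e-06, and 0.00562 with near-identical libraries added). H2-M3 was also called higher in YAP Tg than in Control (0.74) and lower in Tet1 KO YAP Tg than in YAP Tg (-0.57).

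The pseudogene H2-Bl, singled out after its values were seen, had 0.142, 3.48 and 0.0826 with decitabine, 2.55, 2.73 and 2.35 in Tet1 KO YAP Tg, 0.792, 0.447 and 0.583 in YAP Tg and 0.175, 0.133 and 0 in Control, the last from 6 reads. Decitabine library 2 alone, with 129 of the 135 reads of its group, was above the untreated libraries. The decitabine call (-1.41, adjusted p = 0.0356) became -2.31 (adjusted p = 6.13e-07) without that library, and ended without decitabine library 1 (-0.996, adjusted p = 0.131) or 3 (-0.93, adjusted p = 0.163), without any 1 of the untreated libraries (0.0656 to 0.0843) and by edgeR (0.275). The pseudogene H2-K2 lay between 4.44 and 7.07 in all libraries. It was called higher in YAP Tg than in Control (0.26, adjusted p = 0.049), but not without YAP Tg library 1 (0.172) or 2 (0.126) or Control 1 (0.155) or 3 (0.0648). The call of Tet1 KO YAP Tg against Control (0.39, adjusted p = 0.0141) ended without Tet1 KO YAP Tg library 3 (0.0519) or Control 1 (0.0521).

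Of the 6 genes of the class I light chain, peptide supply and loading, 3 were lower and none higher in YAP Tg than in Control, and 4 were higher and none lower in Tet1 KO YAP Tg than in YAP Tg. Against Control, Tet1 KO YAP Tg had 1 higher and 1 lower, and with decitabine 2 were higher and 1 lower. The counts depended on Control 2, without which 2 (Tap1 and Tapbp, the latter by 0.14) were higher and 3 lower in YAP Tg than in Control. They also depended on the scaling. Without TMM, 3 were higher and 2 lower in YAP Tg than in Control, with Tap1 (0.69, adjusted p = 0.000903), Tapbp (0.57, adjusted p = 2.23e-06) and Psmb8 (0.35, adjusted p = 0.00274) higher. Without it 2 were higher and 1 (Tapbp, -0.31) lower in Tet1 KO YAP Tg than in YAP Tg, 3 higher and none lower in Tet1 KO YAP Tg than in Control, and 4 higher and 1 lower with decitabine. B2m (chr2:122147687-122153082), the light chain of all class I molecules, had 1944, 1165 and 1593 with decitabine, 2522, 2326 and 2551 in Tet1 KO YAP Tg, 1804, 1888 and 1847 in YAP Tg and 3221, 2651 and 3348 in Control. Control lay above all other groups. B2m was lower in YAP Tg than in Control (-0.73, SE 0.0809, adjusted p = 6.34e-06), higher in Tet1 KO YAP Tg than in YAP Tg (0.42) and lower than in Control (-0.31, adjusted p = 0.0103, and 0.0513 without Tet1 KO YAP Tg library 2). The last pair of B2m calls ended without TMM scaling (0.16 with adjusted p = 0.0642, and -0.13 with adjusted p = 0.166). With decitabine it was lower than without (-0.68, adjusted p = 0.00308), a call that ended with all libraries as TPM (-0.31, adjusted p = 0.0733).

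Tap1 (chr17:34187556-34197225), a TAP subunit, had 33.2, 34.6 and 29.2 with decitabine, 27.2, 26.6 and 28.6 in Tet1 KO YAP Tg, 18.1, 17.3 and 18.3 in YAP Tg and 11.8, 19.3 and 14.4 in Control. It was higher in Tet1 KO YAP Tg than in YAP Tg (0.60, adjusted p = 0.00174) and in Control (0.87, adjusted p = 0.000418). Its difference of 0.26 between YAP Tg and Control was not called (adjusted p = 0.0974) unless Control 2 was left out (0.45, adjusted p = 4.02e-05). The decitabine difference of Tap1 (0.23, adjusted p = 0.192) was called without TMM scaling (0.44, adjusted p = 0.0233) and as TPM (0.59, adjusted p = 0.00323). The other subunit, Tap2, had 8.31, 19.9 and 13.4 with decitabine, 15.2, 15.2 and 14.1 in Tet1 KO YAP Tg, 11.9, 11.9 and 11.5 in YAP Tg and 17.5, 13.9 and 18.3 in Control. Tap2 was lower in YAP Tg than in Control (-0.47, adjusted p = 0.00105, and 0.663 without TMM scaling), and with decitabine it was not called (-0.18, adjusted p = 0.517) until decitabine library 2 was left out (-0.47, adjusted p = 0.0288). Between Tet1 KO YAP Tg and Control, Tap2 was not called (-0.15, adjusted p = 0.261) unless Control 2 was left out (-0.26, adjusted p = 0.00644). Tapbp, which encodes tapasin, had 52.8, 103 and 67.1 with decitabine, 49.7, 52.8 and 52.3 in Tet1 KO YAP Tg, 52.0, 54.4 and 55.0 in YAP Tg and 47.0, 49.8 and 50.7 in Control. Its decitabine call (0.46, adjusted p = 0.034) rested on decitabine library 2 (0.21, adjusted p = 0.0855, without it) and also ended without any 1 of the untreated libraries (0.0667 to 0.0897).

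The immunoproteasome subunit Psmb8, which replaces Psmb5, had 49.3, 30.8 and 31.8 with decitabine, 20.8, 21.8 and 21.2 in Tet1 KO YAP Tg, 22.2, 19.5 and 19.3 in YAP Tg and 20.05, 23.1 and 21.4 in Control. It was higher with decitabine (0.76, SE 0.153, adjusted p = 0.000799), and with TMM scaling it was called in no other comparison. Psmb9, which replaces Psmb6, had 18.4, 13.1 and 10.98 with decitabine, 12.3, 12.2 and 11.1 in Tet1 KO YAP Tg, 7.74, 6.29 and 6.71 in YAP Tg and 11.05, 10.3 and 11.9 in Control, and was lower in YAP Tg than in Control (-0.65, adjusted p = 8.19e-05). Its decitabine difference (0.22, adjusted p = 0.266) was called without TMM scaling (0.43, adjusted p = 0.0245) and as TPM (0.59, adjusted p = 0.00248). Per kilobase, the ratio of Psmb8 to Psmb5 was 1.44 to 2.25 with decitabine, 0.463 to 0.483 in Tet1 KO YAP Tg, 0.763 to 0.872 in YAP Tg and 0.433 to 0.648 in Control. In these ratios the constitutive subunits moved too: all 3 (Psmb5, Psmb6 and Psmb7) were lower in YAP Tg than in Control and higher in Tet1 KO YAP Tg than in YAP Tg, and Psmb5 and Psmb6 were lower with decitabine. Without TMM scaling 1 of the 3 was lower in YAP Tg than in Control and 2 were higher in Tet1 KO YAP Tg than in YAP Tg. Nlrc5 (chr8:94472763-94527272), the co-activator of class I genes, had 33.2, 38.2 and 28.2 with decitabine, 25.9, 24.5 and 25.8 in Tet1 KO YAP Tg, 25.1, 23.02 and 22.3 in YAP Tg and 16.0, 20.2 and 17.9 in Control. Nlrc5 was higher in Tet1 KO YAP Tg (0.49) and YAP Tg (0.38) than in Control, and its decitabine call (0.37, adjusted p = 0.0183) ended without decitabine library 2 (0.27, adjusted p = 0.0556) or Tet1 KO YAP Tg library 2 (0.0614).

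Of 11 further genes of class I loading and peptide trimming, 1 was higher and 8 lower in YAP Tg than in Control (median -0.588), and 8 were higher and 1 lower in Tet1 KO YAP Tg than in YAP Tg (median 0.555). The largest fall in YAP Tg was in Calr, the chaperone calreticulin of the loading complex, with 725 ± 22.7 normalised reads against 1298 ± 213 in Control. Hspa5, a general chaperone of the endoplasmic reticulum, rose most in Tet1 KO YAP Tg, with 1666 ± 19.8 against 725 ± 30.2 in YAP Tg. With decitabine 4 of the 11 were higher and 3 lower (median -0.02), and against Control Tet1 KO YAP Tg had 4 higher and none lower (median 0.058). Without TMM scaling 3 of the 11 were higher and 5 lower in YAP Tg than in Control, 8 higher and 3 lower in Tet1 KO YAP Tg than in YAP Tg, 10 higher in Tet1 KO YAP Tg than in Control, and 5 higher and 1 lower with decitabine. Of 6 genes of the immunoproteasome and its PA28 activator, 4 were lower and 1 higher in YAP Tg than in Control, and with decitabine Psmb10, the remaining immunoproteasome subunit, was higher (0.89, adjusted p = 0.000121) while 4 were lower. With all libraries as TPM 2 of these were higher and none lower, and without TMM scaling 2 were higher and 2 lower in YAP Tg than in Control.

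Class II chain genes were higher in YAP Tg than in Control. H2-Aa (chr17:34282751-34287771), the alpha chain of I-A, had 75.0, 38.1 and 79.0 normalised reads with decitabine, 15.6, 13.7 and 15.6 in Tet1 KO YAP Tg, 63.7, 65.9 and 64.6 in YAP Tg and 13.7, 27.9 and 16.0 in Control. Decitabine and YAP Tg libraries lay above all Tet1 KO YAP Tg and Control libraries, and the last 2 groups overlapped. H2-Aa was higher in YAP Tg than in Control (1.795, SE 0.192, adjusted p = 4.6e-06) and lower in Tet1 KO YAP Tg than in YAP Tg (-2.08, SE 0.192, adjusted p = 1.43e-06, and 0.0607 with near-identical libraries added). It was not called between Tet1 KO YAP Tg and Control (-0.29, adjusted p = 0.267) and was higher with decitabine than without (1.99, SE 0.268, adjusted p = 2.86e-05).

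H2-Ab1 (chr17:34263227-34269418), the beta chain of I-A, had 44.1, 29.5 and 51.3 with decitabine, 15.9, 14.9 and 15.5 in Tet1 KO YAP Tg, 65.4, 69.0 and 61.8 in YAP Tg and 20.1, 27.8 and 21.3 in Control. No 2 groups overlapped, and Tet1 KO YAP Tg was called lower than Control (-0.55, SE 0.104, adjusted p = 0.00162). Set against Control, YAP Tg gave a log2 fold change of 1.496, Tet1 KO YAP Tg set against YAP Tg gave -2.05, and decitabine gave 1.37. H2-Eb1 (chr17:34305867-34316674), the beta chain of I-E, whose alpha chain partner C57BL/6 mice are known to lack, had 40.2, 24.6 and 38.6 with decitabine, 9.21, 9.81 and 8.58 in Tet1 KO YAP Tg, 36.9, 37.4 and 32.3 in YAP Tg and 9.82, 15.7 and 11.1 in Control. H2-Eb1 was higher in YAP Tg than in Control (1.53), lower in Tet1 KO YAP Tg than in YAP Tg (-1.89), higher with decitabine (1.82), and not called in Tet1 KO YAP Tg against Control (-0.37, adjusted p = 0.0602), although it was called there by edgeR (adjusted p = 0.0402) and DESeq2 (0.0255), with median-of-ratios scaling (0.0495) and without Control 1 (0.0157). Decitabine library 2 was lowest of its group for all 3 chain genes. The ratio of H2-Aa to H2-Ab1 per kilobase was 1.44 to 1.90 with decitabine, 1.03 to 1.12 in Tet1 KO YAP Tg, 1.07 to 1.17 in YAP Tg and 0.759 to 1.12 in Control.

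**Figure D4:**
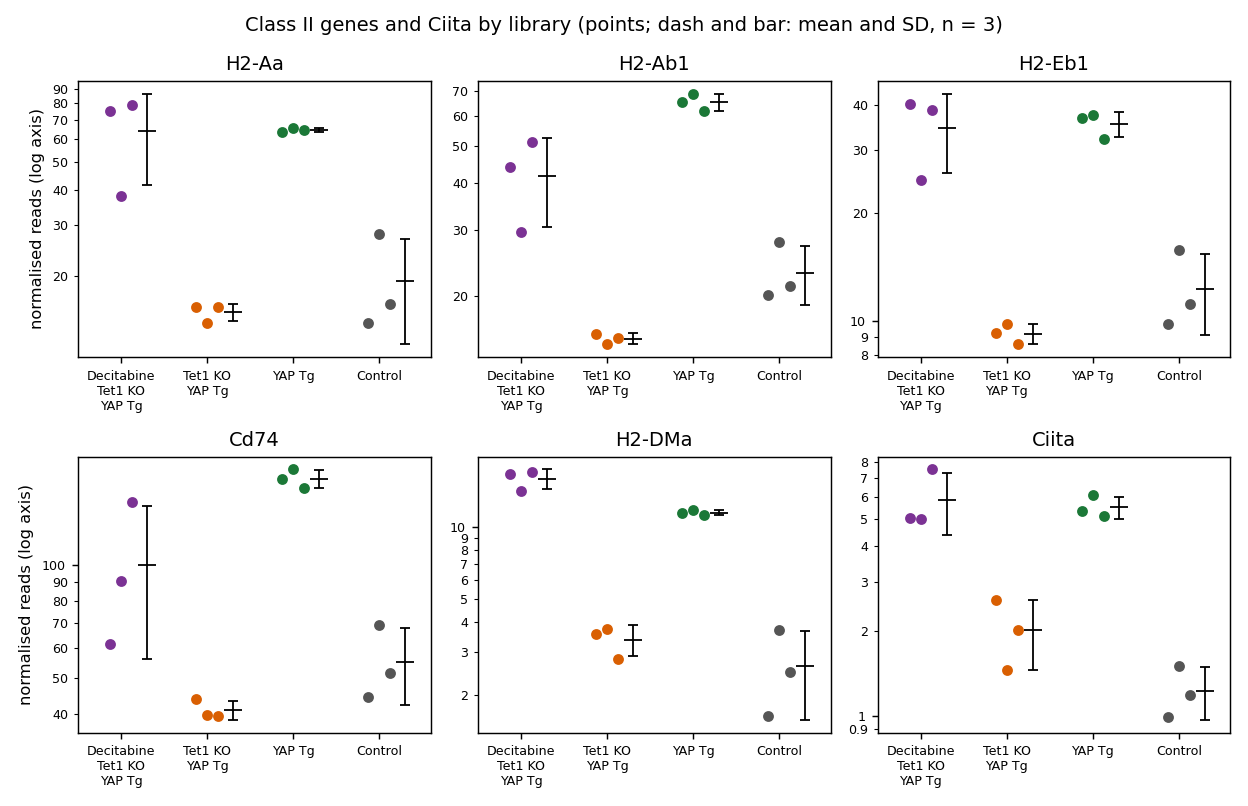
Normalised reads (log axis) of 3 class II chain genes, Cd74, H2-DMa and Ciita in each library (points), with the mean and SD of the 3 libraries of a group (dash and bar). Decitabine and YAP Tg libraries lie above Tet1 KO YAP Tg libraries in each panel, and Cd74 spreads widely with decitabine, between 61.5 and 147.

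The helpers of class II loading differed in the same comparisons. Cd74, on chromosome 18, had 61.5, 90.5 and 147 with decitabine, 43.8, 39.7 and 39.4 in Tet1 KO YAP Tg, 170, 180 and 161 in YAP Tg and 44.5, 69.3 and 51.6 in Control. Cd74 was higher in YAP Tg than in Control (1.64, SE 0.126, adjusted p = 2.31e-07), lower in Tet1 KO YAP Tg than in YAP Tg (-2.04, adjusted p = 3.8e-08, and 0.054 with near-identical libraries added) and higher with decitabine than without (1.184, SE 0.243, adjusted p = 0.000967, and 0.0984 with near-identical libraries added). Tet1 KO YAP Tg was called lower than Control (-0.40, adjusted p = 0.0255), but not without Tet1 KO YAP Tg library 2 (0.0791) or 3 (0.0795), nor without TMM scaling (0.213), and without Control 2 the difference was -0.23. Per kilobase, Cd74 stood to H2-Aa at 0.619, 1.79 and 1.41 in decitabine libraries 1, 2 and 3, beside 1.91 to 2.19 in Tet1 KO YAP Tg, 1.88 to 2.07 in YAP Tg and 1.88 to 2.46 in Control.

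H2-DMa (chr17:34122832-34139101), the alpha chain of the peptide exchange factor H2-DM, had 16.7, 14.2 and 16.9 with decitabine, 3.58, 3.77 and 2.83 in Tet1 KO YAP Tg, 11.4, 11.8 and 11.2 in YAP Tg and 1.64, 3.74 and 2.49 in Control. Its decitabine libraries were above all others. It was higher in YAP Tg than in Control (2.00, SE 0.202), lower in Tet1 KO YAP Tg than in YAP Tg (-1.63) and higher with decitabine (2.08, SE 0.204, adjusted p = 1.53e-06). The difference of 0.37 between Tet1 KO YAP Tg and Control was not called (adjusted p = 0.177) unless Control 2 was left out (0.61, adjusted p = 0.00143). H2-DMb1, a beta chain of H2-DM, had 11.7, 7.71 and 11.1 with decitabine, 2.24, 2.00 and 2.13 in Tet1 KO YAP Tg, 9.79, 9.45 and 9.70 in YAP Tg and 2.28, 2.98 and 2.49 in Control. H2-DMb1 was higher in YAP Tg than in Control (1.72), lower in Tet1 KO YAP Tg than in YAP Tg (-1.95) and higher with decitabine (2.00).

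H2-Ob, a chain of the H2-DM inhibitor H2-O, had 2.24, 1.59 and 2.06 with decitabine, 0.447, 0.454 and 0.373 in Tet1 KO YAP Tg, 2.12, 1.82 and 2.11 in YAP Tg and 0.701, 0.845 and 0.653 in Control. It was called higher in YAP Tg than in Control (1.03), lower in Tet1 KO YAP Tg than in YAP Tg (-1.45) and higher with decitabine (1.41). Its lower level in Tet1 KO YAP Tg than in Control (-0.41, adjusted p = 0.0349) was not called by edgeR (0.0525) or DESeq2 (0.137), with a pseudocount of 2 (0.0611), or without any 1 of 5 libraries (0.0614 to 0.11). H2-DMb2 stayed between 0.179 and 0.950 and was called in the same directions as H2-DMb1, with near-identical libraries added in none. H2-Oa, the partner chain of H2-Ob, was not tested and had 31 reads with decitabine, 10 in Tet1 KO YAP Tg, 24 in YAP Tg and 2 in Control over the 3 libraries of each group.

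Ciita (chr16:10480072-10527564), the class II co-activator, had 5.04, 4.99 and 7.52 with decitabine, 2.59, 1.45 and 2.03 in Tet1 KO YAP Tg, 5.33, 6.08 and 5.14 in YAP Tg and 0.994, 1.51 and 1.19 in Control. It was higher in YAP Tg than in Control (1.805, SE 0.175, adjusted p = 1.93e-06), lower in Tet1 KO YAP Tg than in YAP Tg (-1.27, adjusted p = 4.51e-05, and 0.0992 with near-identical libraries added) and higher with decitabine (1.33, SE 0.201, adjusted p = 7.87e-05). Tet1 KO YAP Tg and Control overlapped and the call between them (0.53, adjusted p = 0.0327) ended without Tet1 KO YAP Tg library 1 (0.135) or 3 (0.0801), without Control 1 (0.11) or 3 (0.0742) and by DESeq2 (0.0502). The factors that Ciita binds on class II promoters were also measured. Rfx5, the X box factor, averaged 11.7 ± 1.22 with decitabine, 10.8 ± 0.895 in Tet1 KO YAP Tg, 15.3 ± 0.666 in YAP Tg and 10.9 ± 0.552 in Control. Its partner Rfxank averaged 9.63 ± 0.381, 13.6 ± 0.776, 7.23 ± 0.204 and 12.8 ± 4.12 in the same groups.

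Markers of the cells that make class II molecules were measured beside these genes. The summed level of 9 Kupffer cell and macrophage markers was 1992 to 2004 with decitabine, 362 to 370 in Tet1 KO YAP Tg, 1670 to 1689 in YAP Tg and 309 to 394 in Control. All 9 were called higher in YAP Tg than in Control, lower in Tet1 KO YAP Tg than in YAP Tg and higher with decitabine. The sum of 7 B cell markers was 9.30 to 12.2 with decitabine, 2.13 to 3.15 in Tet1 KO YAP Tg, 10.8 to 11.6 in YAP Tg and 2.98 to 5.07 in Control, and 6 of 6 tested were higher in YAP Tg than in Control, 6 lower in Tet1 KO YAP Tg than in YAP Tg and 5 higher with decitabine. The sum of 10 dendritic cell markers was 24.1 to 28.1 with decitabine, 10.7 to 12.6 in Tet1 KO YAP Tg, 18.2 to 18.7 in YAP Tg and 10.6 to 12.2 in Control. Of the 8 dendritic cell markers tested there, 6 were higher and 1 (Siglech, -0.41, adjusted p = 0.0352) lower in YAP Tg than in Control, and 5 were lower in Tet1 KO YAP Tg than in YAP Tg, while 6 of 10 were higher with decitabine. None of these marker genes had a mean of 0 in any group, and the lowest means were those of the B cell gene Pax5, at 0.304, 0.0481, 0.157 and 0.0689 in the same order. The ratio of H2-Aa to the macrophage marker sum was 0.0191 to 0.0394 with decitabine, 0.0374 to 0.043 in Tet1 KO YAP Tg, 0.038 to 0.039 in YAP Tg and 0.0442 to 0.0709 in Control. With decitabine and in YAP Tg, sums of neutrophil, NK cell and cholangiocyte markers also lay above all Tet1 KO YAP Tg and Control libraries. The neutrophil sum was 33.7 to 67.5 with decitabine and 26.3 to 28.8 in YAP Tg, against 3.45 to 4.23 in the other groups. Of 5 cholangiocyte markers, 2 were higher and 2 lower with decitabine. Sums of T cell, endothelial, stellate cell and hepatocyte markers did not split these groups. The part of any of these cells in the class II result was not tested.

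**Figure D5:**
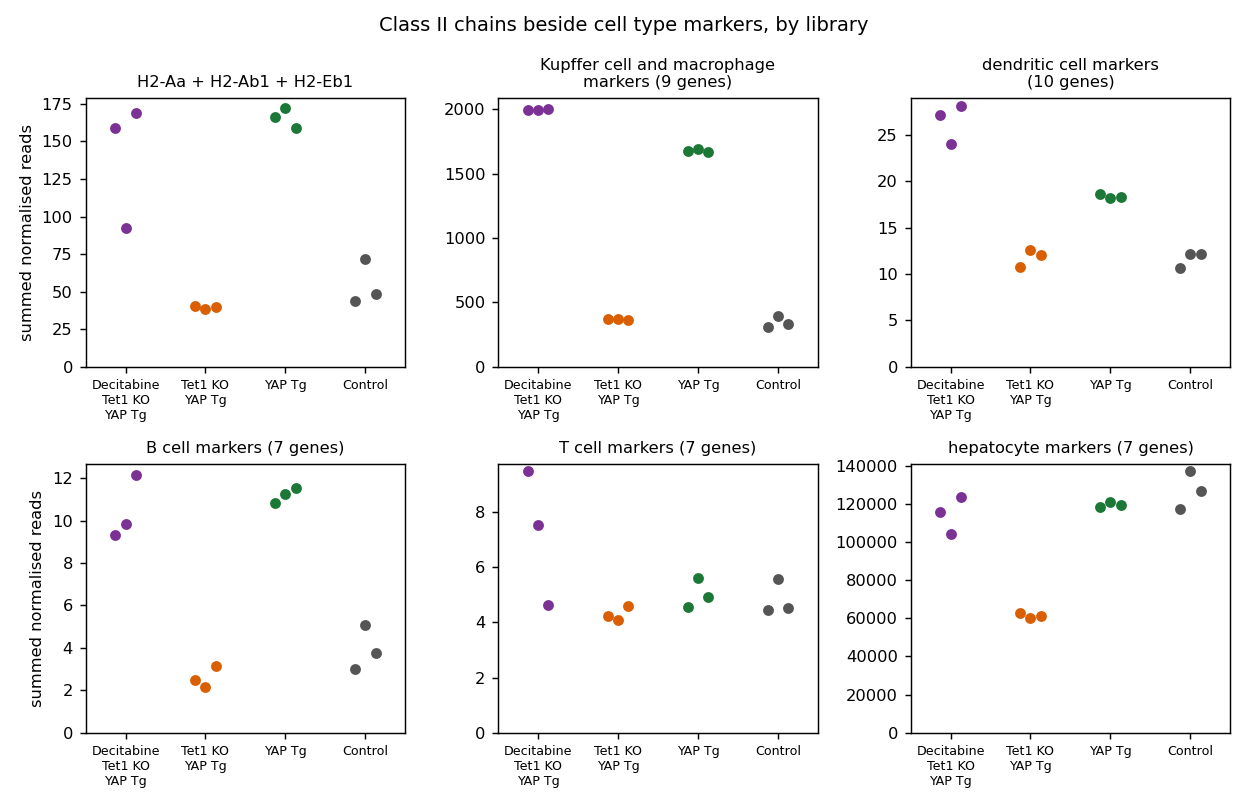
Summed normalised reads per library of 3 class II chain genes and of 5 marker lists (linear axes from 0). The class II sum lies at 92.3 to 169 with decitabine and 159 to 172 in YAP Tg, against 38.4 to 40.7 in Tet1 KO YAP Tg and 43.6 to 71.5 in Control. Macrophage, dendritic cell and B cell markers split the same groups, as did the sums of neutrophil, NK cell and cholangiocyte markers, not shown. The T cell sum overlaps between YAP Tg and Control. It is 4.625 to 9.48 with decitabine against 4.09 to 4.585 in Tet1 KO YAP Tg, with 3 of 4 tested T cell markers called higher.

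The proteases that prepare class II molecules and peptides gave 6 of 7 genes higher in YAP Tg than in Control (median 0.904), 4 lower in Tet1 KO YAP Tg than in YAP Tg (median -0.6) and 5 higher and 1 lower with decitabine (median 0.664). Ctss, cathepsin S, which trims Cd74, averaged 574 with decitabine, 82.1 in Tet1 KO YAP Tg, 434 in YAP Tg and 78.0 in Control. Lgmn, an asparaginyl endopeptidase of lysosomes, averaged 409, 86.2, 333 and 82.2 in the same groups. Ctsb had the opposite sign with decitabine (-0.41, adjusted p = 0.0193). Of the co-stimulatory and checkpoint ligands, 5 of 5 tested were higher in YAP Tg than in Control (median 1.42), lower in Tet1 KO YAP Tg than in YAP Tg (-1.41) and higher with decitabine (2.02), and none was called between Tet1 KO YAP Tg and Control. Cd86, a ligand of CD28, averaged 50.1 with decitabine, 5.41 in Tet1 KO YAP Tg, 24.1 in YAP Tg and 5.15 in Control.

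Interferon gamma is the classical inducer of MHC genes. Of 22 interferon induced genes, a list that holds targets of type I interferon as well, 9 were higher and 8 lower in YAP Tg than in Control (median -0.119), 12 higher and 6 lower in Tet1 KO YAP Tg than in YAP Tg (0.378), 8 higher and 2 lower in Tet1 KO YAP Tg than in Control (0.196), and 10 higher and 2 lower with decitabine (0.403). Over all genes, 36.1% were higher and 34.5% lower in the first of these comparisons, and 33.4% and 34% in the second. The shares were 20.2% and 18.8% in the third and 32.8% and 27.9% with decitabine. Without TMM scaling the counts of the 22 were 10 higher and 5 lower, 7 and 9, 17 and 1, and 14 and 1 in that order of comparisons. With all libraries as TPM 17 were higher and none lower with decitabine. Cxcl9, a chemokine that attracts T cells, averaged 26.0 with decitabine, 38.8 in Tet1 KO YAP Tg, 9.86 in YAP Tg and 35.7 in Control. Ifit2, an RNA-binding antiviral protein, averaged 122, 35.3, 106 and 18.3 in the same groups. Ifng itself stayed at or below 0.178 in every library. The receptor gene Ifngr1 averaged 163 ± 11.4 with decitabine, 26.1 ± 1.31 in Tet1 KO YAP Tg, 92.7 ± 2.01 in YAP Tg and 23.3 ± 3.11 in Control. Of 8 tested MHC-like genes outside the complex, 3 were higher and 5 lower in YAP Tg than in Control. Cd1d1, which presents lipids, averaged 85.0 with decitabine, 136 in Tet1 KO YAP Tg, 57.1 in YAP Tg and 132.5 in Control, and Mr1, which presents vitamin B metabolites, averaged 7.68, 8.97, 21.2 and 7.82.

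The 2 neighbouring genes, H2-Ke6, a steroid dehydrogenase gene, and H2-Ke2, a prefoldin subunit gene, lie in the complex without presenting antigen. H2-Ke6 averaged 26.3 ± 0.359 with decitabine, 32.2 ± 2.33 in Tet1 KO YAP Tg, 19.996 ± 0.574 in YAP Tg and 26.4 ± 3.95 in Control, and H2-Ke2 lay between 16.1 and 26.5 in all libraries. H2-Ke6 was called lower in YAP Tg than in Control (-0.38) and lower with decitabine (-0.29), and both directions turned under another scaling. Without these 2 and the 4 transcribed pseudogenes (H2-K2, H2-Bl, H2-Q5 and H2-T10), 19 of 32 tested members were higher and 8 lower in YAP Tg than in Control, 13 higher and 13 lower in Tet1 KO YAP Tg than in YAP Tg, 16 higher and 4 lower in Tet1 KO YAP Tg than in Control, and 16 higher and 5 lower with decitabine.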

How the data were processed

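RNA libraries of 12 liver samples in 4 groups of 3 were analysed, and 24 samples of other assays were not analysed here. Per the submitters' processing notes, reads were handled with TopHat2, featureCounts and edgeR on mm10, and versions are not given in the sources used here. The deposited values of 9 libraries are a normalised signal per gene with a constant step per library, from which whole reads were recovered within 0.02 read, and TMM scaling of those reads gave the authors' values. The deposited values of the 3 decitabine libraries are TPM, per the file values, from which reads and gene lengths were recovered and brought to the same scale by TMM. On simulated data 92.8% of lengths came out exact. The authors' deposited log2 fold changes, likelihood ratio scores and p-values per the file headers were not used. Because the decitabine values were deposited in another unit, their comparison also rests on this recovery, and on a fit with all libraries as TPM. That fit uses the same recovered lengths, so it is no independent check of the recovery.

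The main test was limma 3.58.1 with a mean trend (R 4.3.3) on log2(normalised reads + 0.5), two-sided, over genes with at least 0.5 in 3 libraries, with Benjamini-Hochberg adjustment over all 13730 genes tested (9 libraries), or 13948 genes for decitabine (12 libraries). Alternatives were edgeR 4.0.16 and DESeq2 1.42.0 on recovered reads, other scalings, pseudocounts and filters, a replicate block and leaving out each library. The scripts were tested on simulated data. The members and lists were chosen with earlier results of these data known. Values in every library are given for classical class I genes, members outside the H2- names, class II chains, H2-Q10, and in each other presenting subgroup the 2 highest and the 2 most changed called genes per comparison. From each list, genes among the 2 largest rises and falls were named. H2-Bl, Rfx5, Ifng, Psmb6 and Pax5 were named outside this rule, after their values were seen. Promoter stretches are from RefSeq (GRCm38.p6).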

Additional observations from a re-analysis of the deposited data

How the results depend on the processing

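With near-identical libraries added together, 2629 genes were called for YAP Tg against Control, 1271 for Tet1 KO YAP Tg against YAP Tg, 38 for Tet1 KO YAP Tg against Control and 3570 for decitabine, and 12, 6, 1 and 11 of the 38 tested members. Scaling by library totals without TMM shifted the median log2 fold change of all genes by 0.423, -0.248, 0.177 and 0.21 in that order. Among members called in either fit, the YAP Tg against Control direction turned under it for H2-Ke2 (0.34), H2-Ke6 (0.050) and Psmb8 (0.35). H2-Ke6 turned with decitabine (0.079) with all libraries as TPM. The cause was not tested. Of 2312 values of single members under all alternatives, 2076 kept their side of the threshold, 189 lost and 43 gained a call. Another 4 turned direction with a call in the main or the alternative fit. Changes of direction between values called in neither fit count among the 2076. Leaving out each library in turn, 29 to 35 members were called for YAP Tg against Control, 28 to 30 for Tet1 KO YAP Tg against YAP Tg, 16 to 25 for Tet1 KO YAP Tg against Control and 19 to 25 with decitabine. Over all genes, leaving out Control 2 gave 10292 calls for YAP Tg and 7488 for Tet1 KO YAP Tg against Control. With a replicate block, 30, 30, 23 and 24 members were called. Same-numbered libraries shared only a number, with correlations of their deviations of -0.0566 to 0.44, so the block is no pairing by design. The 4 members under 0.5 normalised reads in every library were not tested, since their values rest on few reads.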
